A study of Homo sapiens with 6 samples.

Results

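Sites of open chromatin that carried a called peak after 72 h of phorbol ester and at neither earlier time are described here, in K562 cells, an established erythroleukaemic line of chronic myelogenous leukaemia origin. Accessibility was measured by Omni-ATAC, a form of ATAC-seq: a transposase cuts and tags exposed DNA, and more reads over a site mean that it was more exposed. All cells were wild type and were given 25 nM PMA (phorbol 12-myristate 13-acetate, an activator of protein kinase C) for 0, 6 or 72 h, which the labels describe as megakaryocyte differentiation, with 2 libraries at each time. The labels do not say whether the 2 libraries of a time came from separate cultures, so the spread between them may be technical.

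The deposited table lists 181135 sites. A site was taken when it overlapped, by at least 1 base, a deposited peak of both 72 h libraries and no peak of the 0 h and 6 h libraries. The rule gave 32929 sites, or 18.2% of the table, against 35800 sites with peaks in all 6 libraries (called open in all 6 libraries from here on) and 13302 with peaks at 6 h and 72 h only (all 4 of those libraries). Of the 32929, 32860 passed the filter on low counts used for fold changes and 69 did not, and 108 lay on scaffolds outside the chromosomes. The sites were chosen by the peak calls at all 3 times, so their levels at those times are a description and no test of a change. The cells were measured in bulk, so that a site open in more cells and a site open more often per cell cannot be told apart.

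Much of the regulatory DNA of a mammalian cell lies in enhancers, short stretches bound by transcription factors that can sit far from the promoters on which they act. When factors displace nucleosomes there, the DNA becomes accessible to a transposase. PMA acts through protein kinase C and the MAP kinase cascade, whose targets include AP-1, a dimer of JUN and FOS family proteins, and in K562 it is known to favour megakaryocytic over erythroid traits. Factors of the RUNX, ETS and GATA families take part in the megakaryocytic and erythroid programmes.

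The sequences of the sites themselves were not used here, but RefSeq promoter windows of GRCh38.p14 (250 bases before to 50 after a transcription start, 34943 windows of 27167 genes) showed which of them lie at a start. There were 596 windows of 560 genes that overlapped 547 of the sites, and 294 of these windows belonged to protein-coding genes. The 4 windows below are those of the sites with the highest 72 h level, and that of SLAMF8 was added after the values were seen because it holds both the AP-1 and the RUNX letters. Capitals mark matches, on either strand, to the letters of the motifs that are spelled out after the values.
SORBS2, chr4:185933079-185933378, minus strand: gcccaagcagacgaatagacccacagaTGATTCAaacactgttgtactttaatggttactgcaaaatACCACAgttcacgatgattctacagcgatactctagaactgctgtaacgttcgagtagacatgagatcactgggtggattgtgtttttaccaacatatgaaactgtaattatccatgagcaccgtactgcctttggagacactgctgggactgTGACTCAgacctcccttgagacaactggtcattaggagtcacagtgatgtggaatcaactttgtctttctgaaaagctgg
SSUH2, chr3:8652035-8652334, minus strand: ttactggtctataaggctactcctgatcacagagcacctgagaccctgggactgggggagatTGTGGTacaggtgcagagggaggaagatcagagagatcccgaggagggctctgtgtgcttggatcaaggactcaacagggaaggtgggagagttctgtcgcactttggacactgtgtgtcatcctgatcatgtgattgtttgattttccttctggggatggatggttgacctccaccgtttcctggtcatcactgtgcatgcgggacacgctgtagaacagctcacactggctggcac
LOC102724638, chr22:22881076-22881375, minus strand: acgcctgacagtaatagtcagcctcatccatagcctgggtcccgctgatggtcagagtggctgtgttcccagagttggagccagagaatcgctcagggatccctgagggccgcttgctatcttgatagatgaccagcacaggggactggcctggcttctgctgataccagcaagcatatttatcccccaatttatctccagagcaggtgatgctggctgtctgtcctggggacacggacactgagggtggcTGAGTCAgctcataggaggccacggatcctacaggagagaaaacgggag
LINC02698, chr11:115659103-115659402, plus strand: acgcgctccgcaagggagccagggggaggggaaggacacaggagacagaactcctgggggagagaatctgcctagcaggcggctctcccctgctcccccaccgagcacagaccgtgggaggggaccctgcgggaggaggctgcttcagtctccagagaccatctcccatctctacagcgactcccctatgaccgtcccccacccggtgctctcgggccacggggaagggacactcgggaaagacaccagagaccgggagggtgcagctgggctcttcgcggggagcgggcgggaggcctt
SLAMF8, chr1:159826623-159826922, plus strand: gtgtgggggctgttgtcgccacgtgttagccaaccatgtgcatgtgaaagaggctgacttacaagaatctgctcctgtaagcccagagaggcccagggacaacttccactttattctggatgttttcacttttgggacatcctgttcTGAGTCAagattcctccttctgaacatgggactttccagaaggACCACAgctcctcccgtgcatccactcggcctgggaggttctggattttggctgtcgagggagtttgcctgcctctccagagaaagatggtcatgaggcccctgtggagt

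SORBS2 encodes an adaptor protein of actin-based adhesion structures, and its window holds the AP-1 letters at 2 places and the RUNX letters once. The site over it (chr4:185932858-185933730) measured 0.52 and 0.81 CPM (counts scaled to library size) at 0 h, 1.45 and 0.98 at 6 h, then 15.1 and 18.2 at 72 h. Both 72 h values stood far above the other 4. The site over the SSUH2 window, which holds the RUNX letters once, went from 1.56 and 2.44 CPM at 0 h and 2.64 and 1.61 at 6 h to 16.3 and 16.8 at 72 h. At the start of LINC02698, a long non-coding RNA, where none of the letters occurred, the values were 0.91 and 1.53 CPM at 0 h, 3.16 and 2.37 at 6 h, then 20.3 in both 72 h libraries. Its libraries followed the order of the time points without overlap. At SLAMF8, which encodes a receptor of the SLAM family found on myeloid cells, the site measured 0.26 and 1.15 CPM at 0 h, 0.51 and 1.11 at 6 h, then 8.36 and 9.34 at 72 h, and the 0 h and 6 h libraries overlapped. LOC102724638, a non-coding RNA gene inside the immunoglobulin lambda region, holds the AP-1 letters once, and its site is described with the strongest sites further on. Not every start with a high 72 h level rose. By mean 72 h level, sites at the protein-coding starts of PRAME, CTSE, ZBTB2, H6PD and CCL3L3 lay between those of SSUH2 and SLAMF8. Their log2 fold changes at 72 h against 0 h were 0.07, 3.35, -0.86, 1.22 and 4.45. At an adjusted p under 0.05, edgeR called ZBTB2 lower, CTSE, H6PD and CCL3L3 higher, and PRAME neither.

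Motifs were searched on both strands of each window. The AP-1 letters, TGANTCA, occurred in 22.99% of the windows at these sites, against 7.72% of all windows, 4.91% of windows at sites open in all 6 libraries and 42.1% of the 361 windows at sites with peaks at 6 h and 72 h only. The RUNX letters, TGTGGT, were in 23.2% against 13.1% of all windows, and the GATA letters, AGATAAG, in 4.19% against 2.68%. Of the windows at sites with peaks at 6 h and 72 h only, 18.8% held the RUNX letters and 1.66% the GATA letters. The ETS letters, CCGGAAGT, were in 0.503% (3 windows) against 4.11% of all windows and 8.67% of windows at sites open in all 6 libraries. The longer motif of MAF and NFE2, which contains the AP-1 letters, was in 1.68% against 0.418%. The windows also differed in base composition, with a median GC content of 51.8% against 58.7% for all windows. Among windows of 45 to 55% GC the AP-1 letters were in 24.6% of the 272 at these sites and in 12.01% of all 7145, so that the difference was smaller there, the ETS letters were in 0.368% and 2.55%, and the MAF and NFE2 motif was in 0.735% (2 windows) and 0.644%. In the same GC range the RUNX letters were in 25.7% at these sites and 18.9% of all windows, so that this difference was smaller too. The GATA letters were in 5.51% (15 windows) and 4.07% there. Where a window lay wholly inside one of the sites (306 windows), 30.7% held the AP-1 letters. These are counts of letters and were not tested.

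Of the 275 protein-coding genes with a start at one of the sites, 129 have more than 1 window, and in 58 of those (44.96%) another start lay at a site open in all 6 libraries. The 130 sites whose window held the AP-1 letters had a median log2 fold change at 72 h against 0 h of 1.76, and the other 417 had 1.32. At 6 h against 0 h, 28 of the 130 (21.5%) and 54 of the 417 (12.9%) were called higher by edgeR at an adjusted p under 0.05, against 23.4% of all tested sites. The difference between the 130 and the 417 was not tested.

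**Figure D1:**
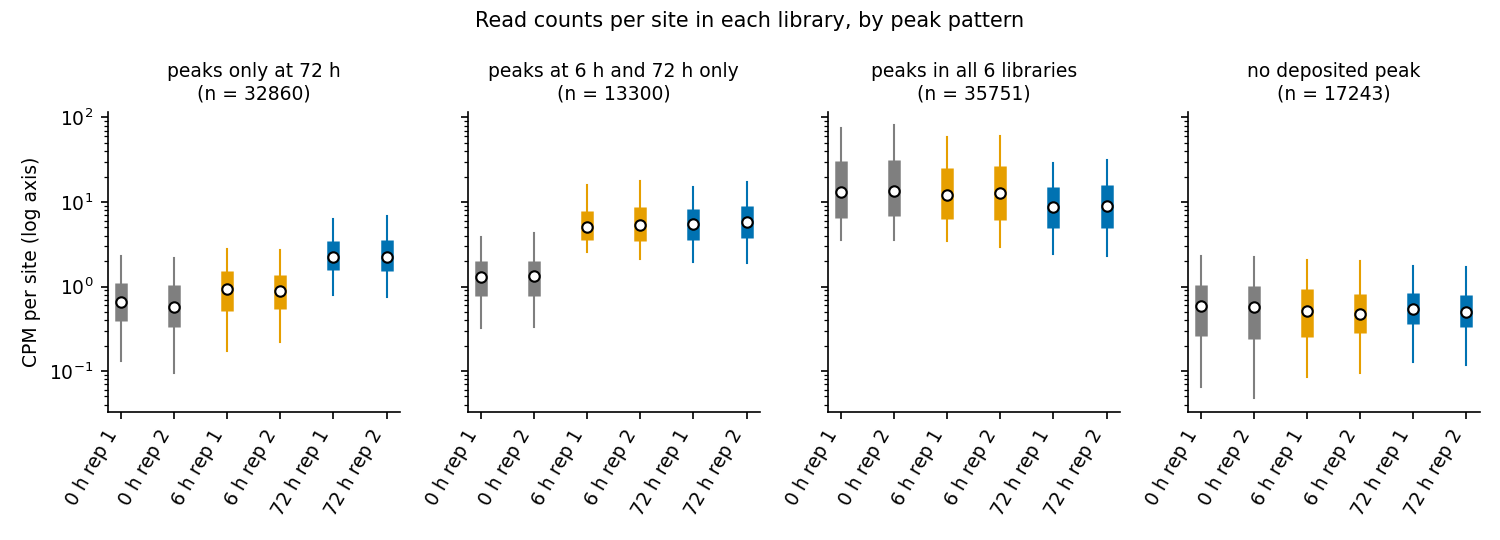
Read counts per site in CPM (log axis), not scaled for site width, in each of the 6 libraries, for 4 peak patterns. White points are medians, thick bars the range from the 25th to the 75th percentile and thin bars the 5th to 95th percentiles; the sites with peaks only at 72 h have medians of 0.650 and 0.574 CPM at 0 h and of 2.23 and 2.27 at 72 h.

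Over all 32860 sites the median level was 0.650 and 0.574 CPM in the 0 h libraries, 0.938 and 0.886 at 6 h, then 2.23 and 2.27 at 72 h. These are low levels: the median raw count was 10 and 12 reads at 0 h, 11 and 28 at 6 h, then 86 and 96 at 72 h, out of 12258890 to 35548737 counts per library. At 0 h, 738 and 579 of the sites had no read, against 4 and 5 at 72 h. The sites held 2.52% and 2.31% of all counts at 0 h, 3.68% and 3.41% at 6 h, then 11.3% and 11.2% at 72 h. The 17243 tested sites without any deposited peak had medians of 0.585 and 0.574 CPM at 0 h, close to those of the sites with peaks only at 72 h. CPM is not scaled for width, however, and the listed sites without a peak were narrower. Their median width was 210 bases, against 578 for the sites with peaks only at 72 h, so the levels were not alike per base. The known erythroid sites of K562 were open at 0 h, with peaks of both 0 h libraries at 3 of 5 sites of GATA1, 5 of 6 of HBE1 and 5 of 10 of TAL1.

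At 72 h against 0 h, edgeR's quasi-likelihood test (Benjamini-Hochberg adjusted p under 0.05) called 25318 of the sites higher (77.0%, against 38.2% of all tested sites) and 180 lower (29.2% of all tested sites). The median log2 fold change was 1.90, against 0.29 over all tested sites. At 72 h against 6 h, 20654 were higher (62.9%, against 22.1%) and 66 lower (against 20.9%), with a median of 1.32. At 6 h against 0 h, 6905 were higher (21.0%, against 23.4% of all tested sites) and 942 lower (against 16.8%), with a median of 0.46. All 3 contrasts carry the selection of the sites, so nothing is read from these shares. With scaling factors taken from the sites open in all 6 libraries, the median log2 fold change at 72 h against 0 h was 2.86 for these sites and 1.25 over all tested sites. The number called higher at 6 h depended on the libraries and tool: it was 4492 without 6 h replicate 2 and 3965 by DESeq2.

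The libraries ranked in the same way. Both 72 h libraries lay above all 4 others at 25945 of the sites (79.0%, against 31.0% of all tested sites), and the 6 h libraries both lay above the 0 h libraries at 14050 (42.8%, against 36.0%) and both below at 4394 (13.4%, against 32.0%). At 11639 sites (35.4%, against 15.6%) all libraries stood in the order 0 h, 6 h, 72 h. The most frequent pattern of calls, at 14813 sites (45.1%, against 12.7% of all tested sites), was no call at 6 h followed by a rise against both earlier times, a pattern that the rule itself favours. Another 3785 sites (11.5%, against 5.51%) were higher in all 3 contrasts, and 5369 (16.3%, against 23.6%) had a peak only at 72 h but no call in any contrast.

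The rule has a threshold in the peak calls, and single sites close to it differed widely in level. The weakest 72 h peak among the sites reached a −log10 q of 2.18, at a 200-base site inside TAFA4 with 4 and 3 counts at 0 h and none at 72 h. The next weakest, near MFAP4, measured 0.97 and 0.86 CPM at 0 h and 1.37 and 1.91 at 72 h. The third, inside ELF2, had 0.65 and 0.48 CPM at 0 h, 2.05 and 1.52 at 6 h, then 1.48 and 1.72 at 72 h. Of the 3 sites just outside, one of 200 bases on chromosome 18 had 2 and 0 counts at 0 h, 1 and 0 at 6 h, then 0 and 2 at 72 h, and was left out by a 6 h peak with a −log10 q of 2.17. Next to it in rank, a site inside TNR with 0.07 and 0.53 CPM at 0 h, 2.73 and 1.27 at 6 h, then 8.44 and 6.99 at 72 h was left out by a 6 h peak with a −log10 q of 2.25. The last, with 1.95 and 2.06 CPM at 0 h, 1.96 and 1.20 at 6 h, then 1.71 and 2.74 at 72 h, was left out by a 0 h peak with a −log10 q of 2.30. The 22796 sites with a peak in 1 of the 72 h libraries had medians of 0.85 and 0.83 CPM at 72 h, and the 16096 sites with both 72 h peaks and a peak in 1 earlier library had 3.11 and 3.26.

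The number of sites moved with the length of the peak lists. The lists held 61873 and 69152 peaks at 0 h, 65336 and 93015 at 6 h, then 138914 and 142305 at 72 h. With every list cut to its 61873 strongest peaks, the rule gave 8287 sites, of which 5358 were among the 32929. Without 6 h replicate 2 in the rule there were 45627 sites, and 12698 sites had been kept out by that library alone. Their median was 1.04 and 1.05 CPM at 0 h and 2.13 and 2.56 at 6 h.

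Some of the sites lay beside older peaks. Within 500 bases of a 0 h peak there were 859 sites, whose median log2 fold change at 72 h against 0 h was 0.95, and 54.0% of them were called higher. More than 20000 bases from any 0 h peak there were 12892 sites, with a median of 2.23 and 82.4% called higher. Of the 180 sites called lower, 67 lay within 1000 bases of a 0 h peak, against 1910 of all 32929 sites with peaks only at 72 h. The median level of the 180 at 0 h was 4.01 CPM.

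The sites lay away from gene ends. Closer than 1000 bases to the end of a protein-coding gene, at either side, were 1150 of the 32821 on chromosomes, or 3.50% (exact Clopper-Pearson 95% interval 3.31 to 3.71%, counting error only), against 10.7% of all sites, 31.5% of sites open in all 6 libraries and 4.67% of sites with peaks at 6 h and 72 h only. The median distance to a gene end was 34.1 kb, against 21.7 kb for all sites and 8.62 kb for sites open in all 6 libraries. Beyond 100000 bases lay 22.4% of them and 16.1% of all sites. Inside a protein-coding gene lay 49.7%, against 54.5% and 64.7%. By transcription starts, where strand is known, 599 of 31171 (1.92%) were within 1000 bases, against 8.10% of all sites. Without the sites within 1000 bases of a 0 h peak, 3.04% were near a gene end.

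**Figure D2:**
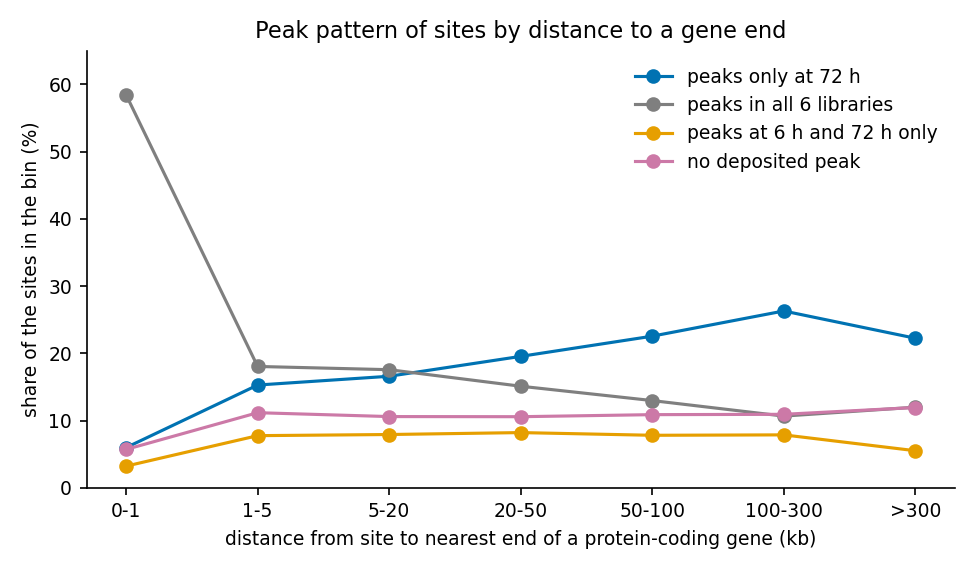
Share of the listed sites in each bin of distance (kb) to the nearest end of a protein-coding gene, by peak pattern. The share with peaks only at 72 h is 5.99% in the nearest bin and 26.3% at 100 to 300 kb, while the share with peaks in all 6 libraries falls from 58.4% to 10.7%.

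Read the other way, sites with peaks only at 72 h made up 5.99% of all listed sites within 1000 bases of a gene end, 15.3% between 1 and 5 kb, 19.5% between 20 and 50 kb and 26.3% between 100 and 300 kb. Beyond 300 kb the share was 22.2%. The share of sites with peaks in all 6 libraries went the other way, from 58.4% to 10.7% over the first 6 bins. Sites with peaks at 6 h and 72 h only made up 3.23% within 1000 bases, 7.76 to 8.22% between 1 and 300 kb and 5.52% beyond. By chromosome the share ran from 11.7% on chromosome 19, which is dense in genes, to 22.7% on chromosome 18 among the autosomes.

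Genes with many of the sites were long. At least 1 was found in 6532 protein-coding genes, 829 genes held 5 or more, 254 held 10 or more and 11 held 30 or more. The 254 had a median length of 420 kb, against 24.1 kb for all 20037 protein-coding genes. The share of such sites among all listed sites in a gene was also higher in longer genes: sites with peaks only at 72 h made up 6.65% of the sites in genes under 10 kb, 13.7% in genes of 30 to 100 kb and 25.8% in genes of 300 kb and more. Over 2905 genes with 10 or more sites, the share and the length had a Spearman correlation of 0.30 across genes, which are not independent.

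RBFOX1, a splicing regulator known from neurons and muscle, held the most, 51 of its 95 sites (chr16:5239721-7713340). Their summed level was 20.7 and 18.3 CPM at 0 h, 36.5 and 33.2 at 6 h, then 136 and 135 at 72 h. CAMTA1 (chr1:6785454-7769706), a calmodulin-binding transcription activator, followed with 41 of 130, and its sums were 36.1 and 35.4 CPM at 0 h, 43.2 and 42.1 at 6 h, then 213 and 187 at 72 h. In both genes the 3 times did not overlap. PTPRM, a receptor tyrosine phosphatase of cell contacts, held 39 of 85. SUGCT, a mitochondrial CoA transferase, held 37 of 83, and PTPRN2, a phosphatase-like protein of secretory vesicles, 35 of 109. CACNA1E, a voltage-gated calcium channel subunit, held 32 of 74, with sums of 19.4 and 16.5 CPM at 0 h, 26.8 and 24.2 at 6 h, then 154 and 146 at 72 h.

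Each of the next 4 genes held 31 sites: AUTS2 (of 57), the potassium channel gene KCNMA1 (of 77), the neurotrophin receptor gene NTRK3 (of 56) and the recombination gene RAD51B (of 87). RPS6KA2, a kinase downstream of ERK, held 30 of 87, and CAST, the calpain inhibitor calpastatin, 29 of 92. Several of these genes are best known from neurons, and accessibility inside a gene says nothing here about its transcription. In the 12 genes these sites made up 31.5 to 55.4% of all sites. The median was 15.8% over the genes with 10 or more sites, and the share was 25.8% in genes of 300 kb and more. All 12 are longer than 300 kb and were chosen for their number of such sites, so a high share follows in part from the choice. Sites open in all 6 libraries were few in them, 1 to 11 per gene.

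**Figure D3:**
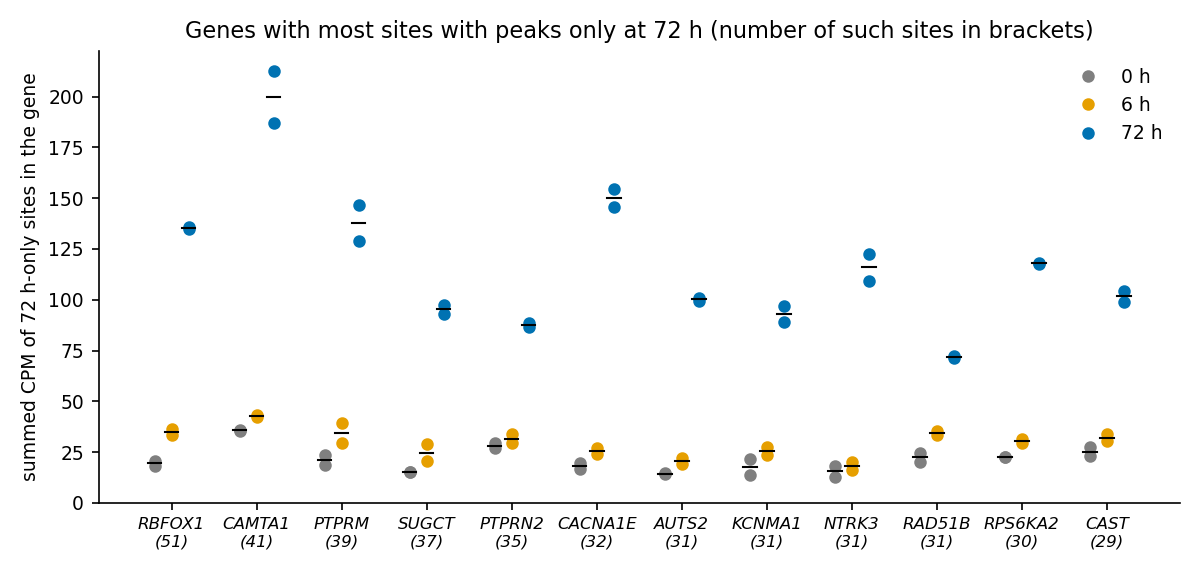
Summed CPM of the sites with peaks only at 72 h inside each of the 12 genes that hold most of them (number of sites in brackets). Points are single libraries and bars the means of 2. In every gene both 72 h libraries stand above all 0 h and 6 h libraries, as at RBFOX1 with 136 and 135 against at most 36.5. The rule itself favours this order.

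The strongest of these sites in a gene was often near background beforehand. In CAMTA1 the site chr1:7552229-7552959 had 0.19 and 1.05 CPM at 0 h, 1.02 and 1.20 at 6 h, then 22.7 and 19.4 at 72 h. In CACNA1E the site chr1:181395804-181396808 had 0.71 and 0.14 CPM at 0 h, 1.28 and 0.92 at 6 h, then 16.6 and 17.7 at 72 h. In NTRK3 the site chr15:88234960-88236136 had 0.71 and 1.20 CPM at 0 h, 0.94 and 1.39 at 6 h, then 11.91 and 11.99 at 72 h. The 0 h and 6 h libraries overlapped at the CAMTA1 and NTRK3 sites, and at all 3 the 72 h pair stood apart. At the RAD51B site chr14:68547455-68547976 the level was 0.32 and 0.86 CPM at 0 h, 3.16 and 3.26 at 6 h, then 6.70 and 6.42 at 72 h, so that part of the rise was in place at 6 h without a called peak.

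Per length, other genes came first. DMBT1 (chr10:122560754-122643736), a scavenger receptor-like protein, held 11 sites in 83.0 kb, or 13.3 per 100 kb. Their summed level was 4.42 and 3.78 CPM at 0 h, 4.26 and 4.87 at 6 h, then 52.3 and 62.8 at 72 h. BACE2, an aspartyl protease, held 15 (13.1 per 100 kb), with 12.4 and 8.94 CPM at 0 h, 10.3 and 9.62 at 6 h, then 127 and 110 at 72 h. In both genes the 6 h libraries overlapped those of 0 h. PPFIBP1, a liprin of cell adhesion, and AFAP1, an actin filament-associated protein, held 17 each (9.92 and 9.38 per 100 kb), and ETS1, a transcription factor of the ETS family, held 12 (9.32).

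At the strongest ETS1 site (chr11:128463210-128463986) the level was 0.58 and 0.24 CPM at 0 h, 0.94 and 0.89 at 6 h, then 12.8 and 13.7 at 72 h, in the order of time without overlap. TSPAN9, a tetraspanin found on platelets, held 18 (8.61 per 100 kb), TRPC7 13 (8.51), HMGA2 12 (8.46), AFAP1L2 11 (8.84) and EVA1C 9 (8.68). Among these 10 genes no more than 5 sites per gene were open in all 6 libraries, and in DMBT1, AFAP1L2, TRPC7 and HMGA2 none was.

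By share, LPP (chr3:188153021-188890671) came first: 14 of its 19 sites (73.7%) had peaks only at 72 h. LPP encodes a LIM-domain protein of focal adhesions. The 14 summed to 7.67 and 9.27 CPM at 0 h, 11.5 and 11.1 at 6 h, then 52.8 and 51.0 at 72 h, and no site of the gene was open in all 6 libraries. PRICKLE2, a planar polarity protein, had 8 of 11 (72.7%), ADAMTSL3 and the Hedgehog effector GLI3 had 9 of 13 (69.2%), and SMOC1, a matrix protein, had 10 of 15 (66.7%). CSGALNACT1, which starts chondroitin sulfate chains, had 15 of 23 (65.2%), AFAP1L2 and TXLNB had 11 of 17 (64.7%), VAT1L had 14 of 22 (63.6%) and TRPC7 13 of 21 (61.9%). In all of these genes except ADAMTSL3 the sums of both 6 h libraries lay above both at 0 h. Of single sites, 42.8% of those with peaks only at 72 h and 36.0% of all tested sites had this order. No such share was taken for sums over genes, and the genes were chosen for these sites, so nothing is read from it. In VAT1L the sums were 7.99 and 7.22 CPM at 0 h, 16.7 and 11.5 at 6 h, then 45.9 and 41.4 at 72 h. In ADAMTSL3 they were 7.28 and 5.69 CPM at 0 h and 11.9 and 6.55 at 6 h, with overlap.

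The sites tended to lie next to each other. The next listed site on either side of one was itself such a site in 26.4% of cases, where 18.2% of all sites are. The exact 95% interval of 26.1 to 26.8% counts each pair of such neighbours from both sides, so it is too narrow even for counting error. The share was above that of all sites in every bin of gap width, from 24.9% against 15.4% for gaps up to 2 kb to 28.4% against 22.3% between 20 and 50 kb. Sites open in all 6 libraries also neighboured their own kind, at 25.3% against 19.8%, and sites with peaks at 6 h and 72 h only less so, at 8.36% against 7.35%. Sites open in all 6 libraries were 14.2% of the neighbours. With equal peak lists the share was 8.09% against 4.58%, and with sites within 1000 bases of a 0 h peak left out it was 27.0% against 17.1%. These shares were not tested, since neighbouring sites share their surroundings.

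**Figure D4:**
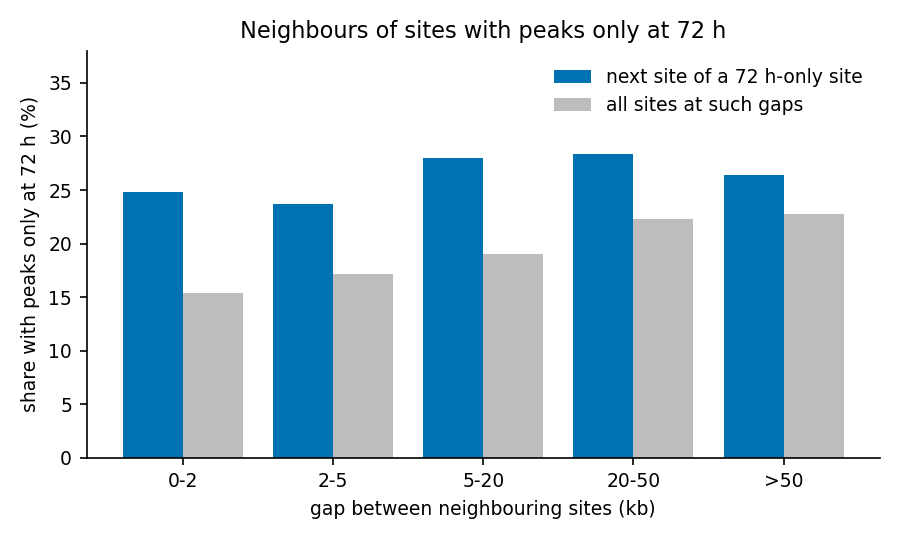
Share of sites with peaks only at 72 h among the neighbours of such sites (blue) and among all sites at gaps of the same width (grey), by gap in kb. Blue bars stand above grey bars in each bin, at 24.9% against 15.4% up to 2 kb and 26.4% against 22.8% beyond 50 kb.

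Clusters were formed by joining sites at gaps of up to a limit set a little above 12 kb. This gave 17783 single sites (54.0%), 4166 pairs and 1866 clusters of 3 or more that held 6814 sites (20.7%). There were 261 clusters of 5 to 9 and 8 of 10 or more, with 86 sites. The median gap to the nearest other such site was 14.4 kb. The share in clusters of 3 or more follows the gap allowed, at 3.85% for 5000 bases and 68.0% for 50000, and the number of sites, at 4.11% with equal peak lists.

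The 2 largest clusters held 12 sites each. One spans 75.1 kb inside TSPAN9 (chr12:3081055-3156166), where 12 of 18 listed sites had peaks only at 72 h. Their summed level was 7.28 and 5.93 CPM at 0 h, 7.08 and 8.32 at 6 h, then 50.2 and 52.1 at 72 h. The other spans 53.1 kb of PTPN14 (chr1:214394444-214447508), a phosphatase known for binding YAP in the Hippo pathway, with 12 of 14 sites. Its sums were 7.60 and 5.78 CPM at 0 h, 10.2 and 7.56 at 6 h, then 71.8 and 70.0 at 72 h. In neither cluster was any site open in all 6 libraries, and in PTPN14 the median log2 fold change at 6 h against 0 h was 0.06.

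**Figure D5:**
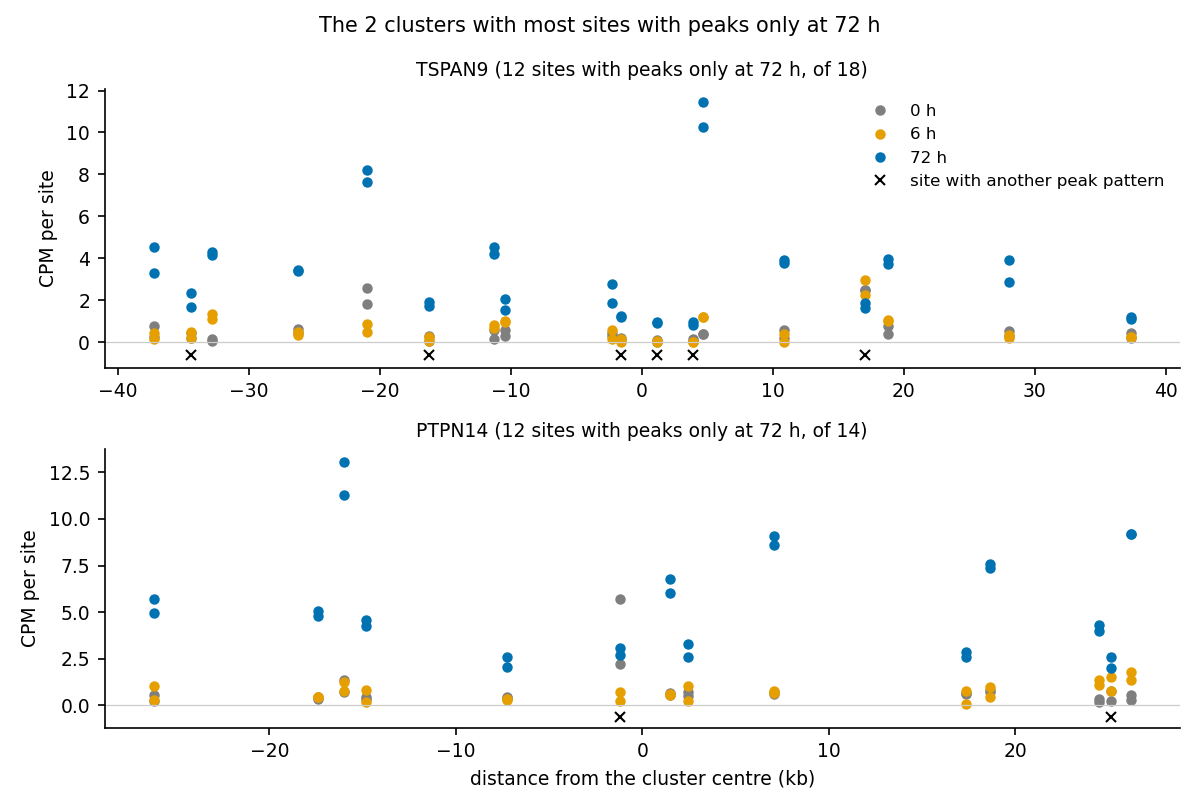
CPM of each listed site in the clusters of TSPAN9 (18 sites) and PTPN14 (14 sites) against the distance in kb from the cluster centre. Each point is 1 library, and crosses below 0 mark the sites with another peak pattern. The 12 sites in each cluster without a cross have both 72 h libraries above the other 4, as do most sites with a cross. Of all tested sites 31.0% have this order, and the rule itself favours it.

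Inside AFAP1 (chr4:7837476-7918992) 11 of 18 sites formed a cluster with sums of 8.12 and 5.35 CPM at 0 h, 11.5 and 12.97 at 6 h, then 57.1 and 59.2 at 72 h. A cluster of 11 of 15 lay over SULT1C3 and SULT1C2, genes of sulfotransferases (chr2:108257583-108324985). Its sums were 7.80 and 8.41 CPM at 0 h, 7.16 and 6.77 at 6 h, then 36.2 and 39.0 at 72 h, so that both 6 h libraries were below both at 0 h. ARHGAP26, a GTPase-activating protein, held 10 of 16 in 67.3 kb, and RPS6KA2 10 of 14 in 47.8 kb.

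A pair of the 8 clusters lay outside protein-coding genes. One on chromosome 14 (chr14:97106492-97172521) held 10 of 16 sites with the nearest gene, VRK1, 225 kb away, and measured 6.56 and 6.41 CPM at 0 h, 7.85 and 5.89 at 6 h, then 47.5 and 46.8 at 72 h. The other (chr7:131604841-131672455, 10 of 17) lay 48.2 kb from PODXL, the gene of the sialomucin podocalyxin. It measured 7.93 and 8.37 CPM at 0 h, 13.3 and 14.5 at 6 h, then 62.5 and 53.9 at 72 h, in the order of time without overlap. Over the 8 clusters, 9 to 12 sites in each were called higher at 72 h against 0 h and 0 to 5 at 6 h against 0 h, where 38.2% and 23.4% of all tested sites were.

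Of the 10 strongest sites, taken by mean 72 h level, 5 lay within 2.50 Mb of chromosome 22 (chr22:20782902-23286379), a stretch that holds the immunoglobulin lambda genes and ends inside BCR. K562 is known to carry extra copies of DNA there through its BCR-ABL1 amplification. The strongest of all, chr22:22038431-22039104, which lies 55644 bases from TOP3B, measured 4.09 and 3.35 CPM at 0 h, 6.57 and 6.55 at 6 h, then 37.2 and 35.7 at 72 h. The site inside BCR (chr22:23285631-23286379) measured 4.35 and 4.40 CPM at 0 h, 5.12 and 4.56 at 6 h, then 25.9 and 38.1 at 72 h. The site at the start of LOC102724638 measured 7.80 and 5.93 CPM at 0 h, 5.03 and 5.54 at 6 h, then 25.9 and 26.9 at 72 h, with both 6 h libraries below both at 0 h.

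The ends of the stretch were set by the outermost of the 5 sites. Of its 528 listed sites, 68 had peaks only at 72 h (12.9%, against 18.2% of the table). Their median level was 2.66 CPM at 0 h and 6.11 at 72 h, against 0.629 and 2.25 for those elsewhere, while their median log2 fold change was 1.06 against 1.91. Sites without any deposited peak were also higher there, at 1.64 against 0.579 CPM at 0 h and 0.851 against 0.523 at 72 h. Their median log2 fold change at 72 h against 0 h was -0.86, against -0.06 elsewhere. Copy number was not measured here, and its part in these levels was not tested.

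Outside chromosome 22 the strongest were a site 12332 bases from ZSCAN20 (chr1:33459451-33460313), with 0.65 and 0.81 CPM at 0 h, 3.16 and 4.27 at 6 h, then 20.2 and 23.6 at 72 h, and one 53820 bases from WSCD1 (chr17:6178247-6179718), with 0.91 and 0.57 CPM at 0 h, 2.05 and 1.30 at 6 h, then 20.6 and 22.6 at 72 h. The site inside LARP1 (chr5:154800986-154802187) had 0.65 and 0.62 CPM at 0 h, 3.67 and 2.37 at 6 h, then 19.2 and 23.6 at 72 h. Their log2 fold changes at 72 h against 0 h were 4.88 ± 0.29 (SE), 4.90 ± 0.30 and 5.07 ± 0.31. All 3 had higher 6 h than 0 h libraries without a called 6 h peak. The site inside LRCH4, 750 bases from a gene end, was of another kind, with 8.38 and 8.56 CPM at 0 h, 16.5 and 14.6 at 6 h, then 19.7 and 22.7 at 72 h.

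The steepest 6, among the 19046 with at least 2 CPM at 72 h, had no read in either 0 h library. Against a floor of 3 counts over both 0 h libraries they were at least 32.6 to 38.7-fold higher at 72 h. The steepest, 86574 bases from INHBA (chr7:41791980-41792589), an activin subunit gene, had 0.26 and 0.38 CPM at 6 h, then 2.93 and 3.45 at 72 h. The one inside ALK, a receptor kinase gene, had 2.73 and 0.95 CPM at 6 h, then 2.82 and 2.57 at 72 h, so that 6 h replicate 1 reached the 72 h level.

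The genes of the pathways at issue were read from lists that assign a site to a gene that contains it or whose end is the nearest within 50000 bases. Beside the counts of calls in these lists, 77.0% of the sites with peaks only at 72 h and 38.2% of all tested sites were called higher at 72 h against 0 h, and since the rule used this contrast nothing is read from those counts. The megakaryocyte and platelet list (30 genes) had 66 of its 350 sites with peaks only at 72 h (18.9%, near the 18.2% of the table), in 17 genes, and 58 of the 66 were called higher at 72 h against 0 h. FLI1, an ETS factor of megakaryocytes, held 10 of 16, RUNX1 9 of 62, and VWF, the gene of von Willebrand factor, 7 of 29. The strongest VWF site (chr12:6138497-6139311) had 0.52 and 0.91 CPM at 0 h, 1.36 and 1.04 at 6 h, then 6.06 and 5.31 at 72 h. The strongest FLI1 site was modest, at 1.23 and 1.24 CPM at 0 h, 1.11 and 0.95 at 6 h, then 2.77 and 3.89 at 72 h. At the start of F13A1, the gene of a coagulation factor subunit of platelets and macrophages, a site went from 0.26 and 0.29 CPM at 0 h and 0.17 and 0.19 at 6 h to 2.54 and 2.88 at 72 h. F13A1 was chosen after its values were seen. In the other lists, sites at starts of TNS1, IL7R, FCGR1A and CD8A had log2 fold changes of 2.96, 1.06, 0.41 and 0.37 at 72 h against 0 h. Those of TNS1 and IL7R were called higher, and those of FCGR1A and CD8A were not called.

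The erythroid list (24 genes) had 22 of 226 (9.73%), of which 9 were called higher and 2 lower at 72 h against 0 h. SPTB, a spectrin chain of the red cell membrane, held 4 and ANK1 held 3. The protein kinase C list (9 genes) had 51 of 346 (14.7%), 40 of them called higher, with PRKCE at 16, PRKCH at 13 and PRKCB at 8. At the strongest PRKCH site the level was 2.08 and 1.82 CPM at 0 h, 5.12 and 5.70 at 6 h, then 8.21 and 8.47 at 72 h, in the order of time. The AP-1 list with its partners (15 genes) had 41 of 247 (16.6%), 35 called higher, with BACH2 at 18, JUN at 6 and FOSL2 at 5.

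The list of actin cytoskeleton and focal adhesion genes (25 genes) had 114 of 573 (19.9%, also near the 18.2% of the table), 96 of them called higher. TNS3, a tensin, held 25 of 67, and LPP and TLN2, a talin, held 18 each, of 26 and 45. The strongest TLN2 site (chr15:62455231-62456562) had 0.97 and 0.81 CPM at 0 h, 0.94 and 1.23 at 6 h, then 13.8 and 15.0 at 72 h, with no separation of 0 h from 6 h. The cell cycle list (11 genes) had 13 of 139 (9.35%), 10 called higher, led by CDKN1A with 4, while CCND1 and CCND2 held 2 each.

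Lists of other blood lineages also held such sites. The monocyte and macrophage list (15 genes) had 16 of 99 (16.2%), 10 called higher, with 2 each at CSF1R, FCGR1A and ITGAX. The lymphoid list (12 genes) had 24 of 101 (23.8%), 21 called higher, of which the B cell factor genes EBF1 and PAX5 held 15 and 6, and CD3E held 1. The strongest EBF1 site (chr5:158910956-158912327) had 1.62 and 1.00 CPM at 0 h, 2.05 and 2.44 at 6 h, then 15.6 and 19.2 at 72 h. The housekeeping list (12 genes) had 3 of 88 (3.41%), at YWHAZ and PPIA, with 1 called higher. None of these shares was tested, and the lists differ in the length of their genes.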

How the data were processed

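Chromatin accessibility was measured in 6 libraries of K562. Reads were processed with Trim Galore 0.4.3, BWA 0.7.17, SAMtools 1.9, deepTools 3.0.1, bedtools 2.26, MACS2 and DESeq on hg38, per the submitters' processing notes, which give no roles or settings. The authors deposited one table of sites with raw read counts per library, their log2 fold changes and an adjusted p-value, and a class name per site. They also deposited a peak list per library with a score, a fold enrichment, the p-value as −log10 and the q-value as −log10; these are the authors' values and only the q-value was used, to rank or filter peaks. Whether read ends were shifted for the transposase is not given in the sources used here. Coordinates are 1-based.

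From the counts, edgeR 4.0.16 in R 4.3.3 fitted a quasi-likelihood model of the 3 times to all 6 libraries, with TMM scaling and its default filter (minimum count 10), over the whole table. CPM uses the TMM-scaled library size. The fit was also run on simulated counts in which few sites changed, so that run cannot test the scaling where many sites change. Genes came from a RefSeq table of GRCh38.p14, without strand, and promoter windows from RefSeq. The sites and gene lists were chosen with earlier results of these data known. Named were the 12 genes with most sites, the 10 densest per 100 kb with at least 8, the 10 with the highest share among those with 10 or more sites, the 8 largest clusters, the 10 strongest and 6 steepest sites, the 3 leading genes per list and the sites nearest the threshold; others, among them F13A1 and SLAMF8, were chosen after their values were seen. A gene that this rule would name is not reported here. Floors and intervals cover counting error only, and the interval of the neighbour share is too narrow even for that. Library depth ran from 12258890 to 35548737 counts.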

Additional observations from a re-analysis of the deposited data

How the results depend on the processing

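The number of sites was 33682 when peaks had to cover 50% of the site and 30108 with 72 h peaks of a −log10 q of at least 5, but 55725 with a peak in either 72 h library and 8287 with equal peak lists. Leaving single libraries out of the rule gave 33849 to 45695. The share near a gene end was 3.77% with 50% cover, 3.74% with either library, 2.87% with equal lists and 3.04% without sites within 1000 bases of a 0 h peak. It was 13.2% for a reach of 5000 bases and 10.4% for all annotated genes, and 3.52 to 3.88% with single libraries left out. The share with a neighbour of the same kind was 25.0%, 24.3%, 41.3% and 8.09% under 50% cover, the stricter q, either library and equal lists, against 18.6%, 16.6%, 30.8% and 4.58% of all sites, and 26.7 to 34.2% with single libraries left out. The share in clusters of 3 or more was 19.9%, 19.2%, 35.4% and 4.11% in the same order, 21.0 to 28.6% with single libraries left out, and 3.85% and 68.0% for gaps of 5000 and 50000 bases. The remaining rules were chosen after seeing the data: with both 72 h peaks covering at least 50% of the site, the neighbour share was 21.3% and the cluster share 15.5%, and without sites within 1000 bases of a 0 h peak they were 27.0% and 19.98%.

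Calls higher at 72 h against 0 h ranged from 20256 (DESeq2) to 31051 (TMM from sites open in all 6 libraries), with 21529 to 25743 when single libraries were left out. At 72 h against 6 h they ranged from 14515 (DESeq2) to 28622 on the same scaling, and from 14153 to 22560 with single libraries left out. Without 6 h replicate 2, without 72 h replicate 1 and without 72 h replicate 2, those calls numbered 14842, 14995 and 14153. At 6 h against 0 h they were 3643 at an adjusted p under 0.01 with an absolute log2 fold change above 1, 3965 by DESeq2, 10273 on the shared-site scaling and 4492 to 5840 with single libraries left out. The shared-site scaling moved the median over all tested sites of the log2 fold change at 72 h against 0 h from 0.29 to 1.25, with 57.7% of sites called higher and 11.05% lower, and that of the sites with peaks only at 72 h from 1.90 to 2.86; total counts moved it to 0.79 and 2.40. With the replicate block in the model the calls were 25434, 20882 and 7228. Samples with the same number deviated together little (correlations of 0.16, 0.089 and 0.14), so the number was not taken as a pairing. Of 897 values of single named sites under alternatives, 878 kept direction and call, 7 lost the call, 7 gained it and 5 changed sign. The 5 were at 2 sites with no call in the reported fit: one at FOSL2, with a log2 fold change at 72 h against 0 h of 0.16, had -0.0228 with RLE scaling and -0.0226 by DESeq2, and one at CD3E, with 0.14, had -0.0427 and -0.0294, and -0.23 to 0.69 with single libraries left out (-0.23 without 0 h replicate 1). Depth limits the 0 h and shallow 6 h values most, where the median site had 10 to 12 reads.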

Other observations

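The authors' deposited table gives each site a class name. The classes other than static held 37609 sites, which were exactly the sites where the authors' adjusted p was under 0.05 and the log2 fold change at 6 h or 72 h exceeded 2 in size. The names did not follow the sign of the deposited fold changes: in the authors' deposited table the 72 h fold change was above 0 in 69.5% of the sites named downEarly, 71.9% of downLate, 69.3% of upEarly and 71.1% of upLate. Of the sites with peaks only at 72 h, 10705 (32.5%, against 20.8% of all sites) were in a class other than static, and 3185 were in classes named down, of which 3180 had a 72 h fold change above 0 in the authors' deposited table. The class names were therefore not used here.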
